A study of Homo sapiens with 18 samples.

Results

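The genes described here encode subunits of the transcription factor AP-1 and members of the EGR zinc-finger family. They are FOS, FOSB, FOSL1 and FOSL2, then JUN, JUNB and JUND, then EGR1, EGR2 and EGR3. The 10 genes were taken by symbol, as a group proposed with earlier results of these data known, and all 10 were among the 23686 gene symbols of the deposited tables of both cell lines.

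AP-1 is a dimer that binds DNA through a basic leucine zipper. FOS proteins have to pair with a JUN protein, whereas JUN proteins can also pair with each other or with ATF, MAF and BATF proteins. Many of these genes, with EGR1, EGR2 and EGR3, are immediate-early genes: MAP kinases acting through SRF, its ELK partners and CREB switch on their transcription without new protein synthesis, and the mRNAs decay fast through AU-rich elements. In B cells, antigen receptor and CD40 signals induce them.

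RNA of OCI-Ly1 and TMD8, established human diffuse large B-cell lymphoma lines, was measured by bulk RNA sequencing after exposure to JIB-04, a small-molecule inhibitor of Jumonji-domain (JmjC) histone demethylases. Each line had 3 groups, namely vehicle (0.01% DMSO), 150 nM JIB-04 and 500 nM JIB-04, with 3 libraries in each group and 18 libraries in all. The culture medium was IMDM for OCI-Ly1 but RPMI for TMD8, both with serum and antibiotics, so line and medium cannot be told apart. No treatment time is stated.

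The libraries held 17579732 to 32651115 estimated counts in OCI-Ly1 and 9550092 to 20509500 in TMD8. The labels call the 3 libraries of a group a technical triplicate, so the p-values below measure the spread between libraries and may not cover that between cultures. No 2 libraries of a group agreed within sampling noise, with chi-square per degree of freedom of 1.62 to 10.9, and all were kept. The B-cell markers MS4A1, CD79A, CD79B and PAX5 were above 1 TPM (transcript abundance scaled for length and depth) in each library. In OCI-Ly1 MS4A1 had a mean of 187 TPM with DMSO, 202 with 150 nM and 154 with 500 nM, and CD79A had 221, 224 and 269 in the same order. In TMD8 MS4A1 had 313, 224 and 169 TPM, CD79A 239.9, 216 and 195, and PAX5 97.9, 77.9 and 61.6. MME and BCL6, germinal-centre markers, were at 84.6 and 79.4 TPM in untreated OCI-Ly1 against 0.0151 and 9.48 in untreated TMD8, and CD44, an activated B-cell marker, was at 0.168 against 182. The summed TPM of the 4 activated B-cell markers (IRF4, ENTPD1, PIM2 and CD44) was 118 to 121 with DMSO, 128 to 131 with 150 nM and 250.1 to 264 with 500 nM in OCI-Ly1, where CD44 stayed below 1 TPM. In TMD8 it was 645 to 811, 520.3 to 583 and 399 to 459 in the same order. LMO2, also on the germinal-centre list, went the other way, at 0.0113 TPM in untreated OCI-Ly1 and 25.1 in untreated TMD8. None of the 4 monocyte markers passed 1 TPM in any library. Of the 4 T-cell markers, CD3D alone passed 1 TPM, in OCI-Ly1 only, at a mean of 11.7 with DMSO, 8.27 with 150 nM and 4.95 with 500 nM, while CD3E stayed below 1 TPM. COL1A1, a fibroblast marker, was at 0.416, 1.25 and 2.74 TPM in TMD8 with DMSO, 150 nM and 500 nM, and EPCAM, an epithelial marker, at 2.87 to 4.27 in OCI-Ly1. The part of these markers in the results below was not tested.

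The promoters of the members that carry the results are shown first, limited to the stretch next to the start site. RefSeq's table of human promoters (GRCh38.p14) was the source, and the windows of FOSL1 and EGR3 are not used here, which leaves 8 of the 10 members. Each line gives the 150 bases before the start site, 5′ to 3′ on the gene's own strand, with matches to a searched motif in capitals. ACGTCA is TGACGT read on the opposite strand. The 250 bases before the start were searched on both strands. The motifs were TGACGT (the core of the cAMP response element that CREB and ATF proteins bind), the full palindrome TGACGTCA that contains it, TGACATCA (a JUN and ATF site), TGANTCA (the AP-1 site), GCGNGGGCG (the EGR site) and the CArG box bound by SRF.
FOS, chr14:75278678-75278827, plus strand: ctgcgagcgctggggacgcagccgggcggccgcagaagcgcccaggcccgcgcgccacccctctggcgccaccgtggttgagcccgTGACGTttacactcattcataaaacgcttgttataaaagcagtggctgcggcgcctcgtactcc
FOSB, chr19:45467846-45467995, plus strand: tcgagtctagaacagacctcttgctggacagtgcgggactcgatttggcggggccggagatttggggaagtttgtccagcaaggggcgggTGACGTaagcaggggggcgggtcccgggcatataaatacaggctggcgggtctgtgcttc
JUN, chr1:58784048-58784197, minus strand: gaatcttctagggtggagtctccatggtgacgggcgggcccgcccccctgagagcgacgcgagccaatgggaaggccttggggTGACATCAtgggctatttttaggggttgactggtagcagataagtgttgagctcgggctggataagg
JUND, chr19:18281623-18281772, minus strand: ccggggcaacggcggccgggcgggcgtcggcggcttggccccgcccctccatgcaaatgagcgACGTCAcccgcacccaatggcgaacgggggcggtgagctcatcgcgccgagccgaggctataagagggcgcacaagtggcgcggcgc
EGR1, chr5:138465329-138465478, plus strand: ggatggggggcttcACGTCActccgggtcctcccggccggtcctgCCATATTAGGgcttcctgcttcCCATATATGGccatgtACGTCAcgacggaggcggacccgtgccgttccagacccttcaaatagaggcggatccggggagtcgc
EGR2, chr10:62816367-62816516, minus strand: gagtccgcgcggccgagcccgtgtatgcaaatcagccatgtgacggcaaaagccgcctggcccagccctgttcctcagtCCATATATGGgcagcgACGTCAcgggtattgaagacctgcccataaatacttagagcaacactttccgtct

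The FOS and FOSB promoters each held 1 TGACGT, starting 64 and 60 bases before the start site. Across the 10 windows of these 8 members, 6 held TGACGT, against 7.10% of the 35116 promoter windows of all genes. EGR2 has 3 windows, and the third, the only one of them with a match to any motif, is printed. EGR1 held 2 CArG boxes and the printed EGR2 window 1, a motif found in 1.16% of all windows. JUN held TGACATCA starting 67 bases before the start, a motif in 2.37% of all windows. JUND held TGACGT in the printed stretch and the palindrome TGACGTCA 200 bases before its start, a motif in 1.65% of all windows. TGANTCA was in none of the 10 member windows and in 6.57% of all, and GCGNGGGCG was in that of EGR1, 198 bases before the start, and in 8.41% of all. JUNB held none of the 6 motifs. A match is a run of letters in a window and does not show binding. Nothing beyond the 250 bases before the start was searched, so a motif not found here, such as a CArG box for FOS, may lie outside them.

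Before treatment the 2 lines stood far apart. In untreated TMD8, JUND was the member with the highest level per transcript length, at 45.6 ± 1.65 TPM (mean ± SD, n = 3), followed by JUNB at 21.8 ± 0.308, JUN at 16.5 ± 1.65, EGR2 at 10.8 ± 1.23 and EGR1 at 6.62 ± 0.587. FOSL2, FOS, EGR3 and FOSL1 had means between 0.397 and 0.651 TPM, with FOS, EGR3 and FOSL1 overlapping in their libraries, and FOSB was lowest at 0.103 ± 0.0480. In untreated OCI-Ly1 the order began with JUND at 10.1 ± 0.508 TPM and JUNB at 8.17 ± 0.0738, and JUN followed at 1.11 ± 0.0769, with no overlap between these 3 genes. The other 7 members had means of at most 0.461 TPM there. EGR3 had 3, 1 and 1 estimated counts in the DMSO libraries of OCI-Ly1.

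In the fit of all 18 libraries, 8 members were called lower in untreated OCI-Ly1 than in untreated TMD8 and 0 higher (edgeR, adjusted p under 0.05, DESeq2 also 8 and 0, and 0 higher at an unadjusted p under 0.05). Of all 16604 genes tested, 39.0% were called lower and 37.8% higher. EGR3, 1 of the 8, was at the floor in OCI-Ly1, so no size is given for it. FOS, FOSL2 and EGR2 each reached the low-count filter's level in that line (0.399 CPM before TMM scaling) in 1 of 3 DMSO libraries. EGR3 reached it in 0. These genes entered the test through groups where they were higher, so their calls add nothing to the count. Leaving EGR3 aside, the difference was widest for EGR2, a zinc-finger factor that takes part in lymphocyte activation, at -6.63 (SE 0.16) on the log2 scale (edgeR, adjusted p = 1.3e-23). EGR2 had 19, 3 and 10 estimated counts in the OCI-Ly1 DMSO libraries. JUN was lower by 29.0 times, EGR1 by 28.9 times, JUND by 8.88 times and JUNB by 5.25 times. FOSB and FOSL1 were not called, with log2 differences of -0.55 (95% interval from -1.49 to 0.40) and -0.67 (from -1.47 to 0.13). On the log2(TPM + 1) and log2(TPM + 0.1) scales these 2 small differences changed sign. Without the first DMSO library of OCI-Ly1 the difference of EGR2 was -7.24 (edgeR, adjusted p = 6.1e-23).

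**Figure D1:**
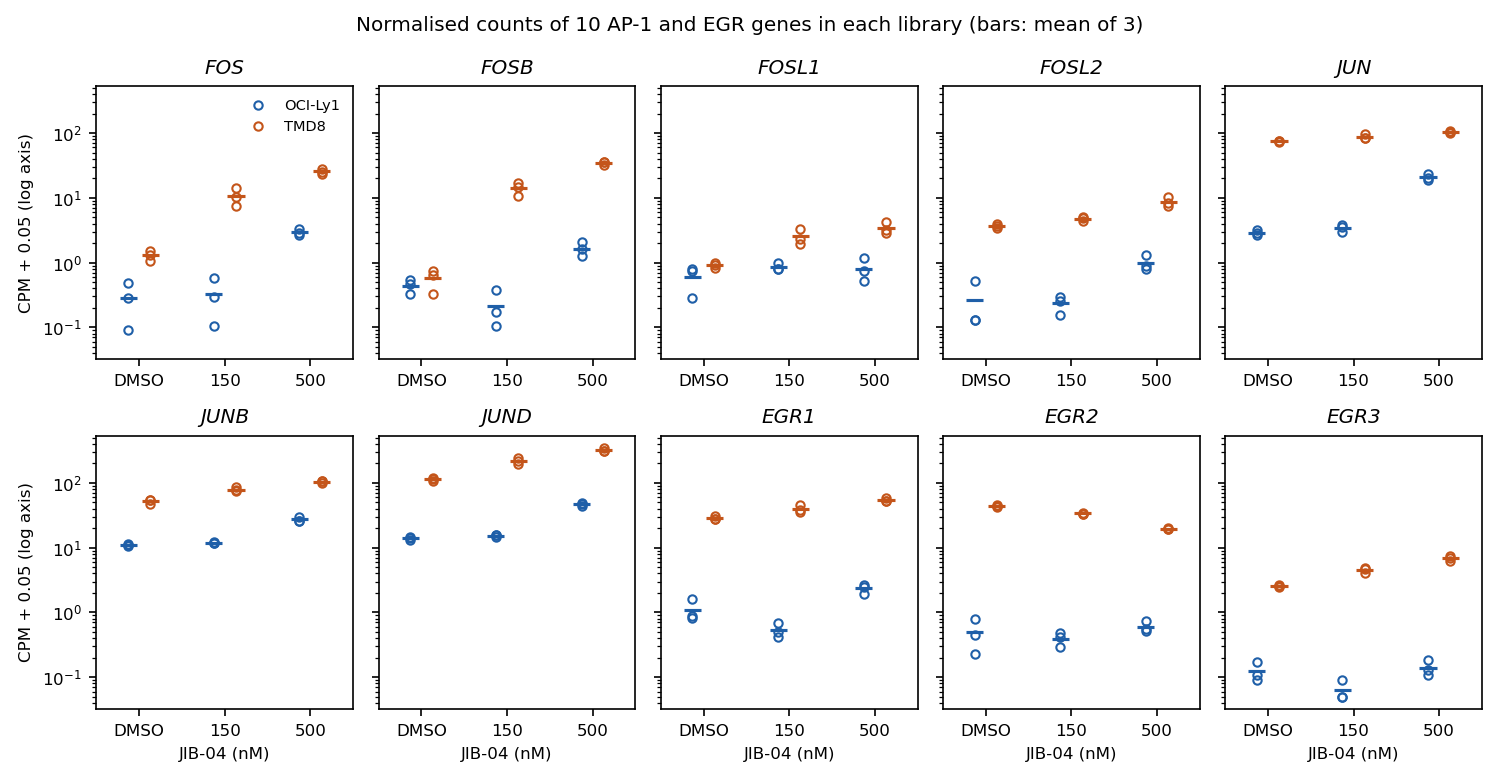
Normalised counts (CPM) plus 0.05, on a log axis, of each of the 10 genes against JIB-04 dose. Circles are the 3 libraries of a group, bars their mean, with OCI-Ly1 in blue and TMD8 in orange, each line scaled in its own fit. FOS and FOSB in TMD8 stand higher at each dose, EGR2 in TMD8 stands lower at each dose, and in OCI-Ly1 the libraries at 500 nM stand apart from the others for JUN, JUNB and JUND.

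The next comparison asked how each dose changed the members within a line. Both doses share the DMSO libraries of their line, so their changes are given side by side. Levels are CPM, counts scaled to library size and by TMM within the line. In bulk RNA a change in the share of cells and one in RNA per cell cannot be told apart.

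In TMD8, 9 members rose and EGR2 fell at both doses (edgeR, adjusted p under 0.05). Of the 15363 genes tested in TMD8, 19.2% were called higher and 25.0% lower at 150 nM, and 29.9% higher and 30.7% lower at 500 nM. FOSB passed the low-count filter only through the treated groups, since 0 of 3 DMSO libraries reached the filter's 0.676 CPM before TMM scaling, so its call adds nothing to the count. The other 9 members passed it in each group. At 150 nM the libraries of 9 members lay above all DMSO libraries and those of 1 below, against 23.1% and 28.3% of all genes tested, and at 500 nM it was again 9 and 1, against 33.1% and 33.3%.

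FOS and FOSB, which encode the immediate-early FOS proteins with a transactivation domain, had the largest rises in mRNA. FOS was at 1.27, 1.01 and 1.46 CPM in the DMSO libraries, 7.40, 10.3 and 14.3 at 150 nM and 27.5, 23.6 and 25.5 at 500 nM. The groups did not overlap, and the lowest 500 nM library was above the highest 150 nM library. The log2 change was 3.12 (SE 0.24) at 150 nM (edgeR, adjusted p = 2.5e-08) and 4.34 (SE 0.22) at 500 nM (edgeR, adjusted p = 1.6e-11), a rise of 8.67 and 20.3 times. FOSB was at 0.698, 0.280 and 0.604 CPM with DMSO, from 11, 5 and 12 estimated counts, at 10.5, 14.9 and 17.0 CPM with 150 nM and at 35.5, 31.8 and 35.3 with 500 nM. These groups were also apart, with log2 changes of 4.75 (SE 0.24) (edgeR, adjusted p = 3.4e-10) and 6.01 (SE 0.21) (edgeR, adjusted p = 4.3e-13). From 150 to 500 nM, FOS rose by a further 1.23 (SE 0.15) and FOSB by 1.25 (SE 0.12) on the log2 scale (edgeR, adjusted p = 1.6e-05 and 1.7e-06).

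FOSL1 and FOSL2, the FOS relatives that lack the strong transactivation domain, moved less. FOSL1 was at 0.952, 0.785 and 0.855 CPM with DMSO, 1.89, 2.28 and 3.27 with 150 nM and 3.16, 4.19 and 2.86 with 500 nM. Its treated libraries were all above the DMSO libraries, while the doses overlapped. The log2 change was 1.55 (SE 0.27) at 150 nM and 1.98 (SE 0.27) at 500 nM (edgeR, adjusted p = 1.6e-04 and 4.3e-06), and the step between the doses, 0.43 (SE 0.23), was not called (edgeR, adjusted p = 0.17). FOSL2 was at 3.87, 3.36 and 3.57 CPM with DMSO, 4.35, 4.77 and 5.06 with 150 nM and 8.24, 7.41 and 10.2 with 500 nM, and the 3 groups did not overlap. Its log2 change was 1.25 (SE 0.15) at 500 nM (edgeR, adjusted p = 1.3e-06). At 150 nM it was 0.40 (SE 0.16), just inside the threshold (edgeR, adjusted p = 0.049). That call ended with DESeq2 (adjusted p = 0.13) and without any 1 of 4 libraries, namely DMSO 2, DMSO 3, 150 nM 2 or 150 nM 3 (edgeR, adjusted p from 0.096 to 0.13).

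The mRNAs of the JUN genes rose in TMD8 in the order JUND, JUNB, JUN. JUND, which is expressed constitutively in many tissues, was at 106, 118 and 116 CPM with DMSO, 197, 221 and 247 with 150 nM and 309.9, 313 and 343 with 500 nM. JUNB, an immediate-early JUN protein with weaker transactivation, was at 47.2, 55.2 and 55.3 CPM with DMSO, 74.6, 76.4 and 86.3 with 150 nM and 100.04, 106 and 107 with 500 nM. For both genes each dose stood above the one below it in all libraries. The log2 changes of JUND were 0.97 (SE 0.07) and 1.51 (SE 0.07) at the 2 doses (edgeR, adjusted p = 1.5e-08 and 7.9e-12). Those of JUNB were 0.59 (SE 0.07) and 0.99 (SE 0.07) (edgeR, adjusted p = 2.2e-06 and 9.4e-10).

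JUN itself, the founding AP-1 subunit, moved least in TMD8, from 76.7, 74.0 and 75.7 CPM with DMSO to 96.0, 82.8 and 83.3 with 150 nM and 101, 107 and 105 with 500 nM. The 3 groups did not overlap, and the log2 changes were 0.21 (SE 0.06) and 0.47 (SE 0.06) (edgeR, adjusted p = 0.0061 and 1.4e-06). Without the first 150 nM library the change at 150 nM was 0.14 (edgeR, adjusted p = 0.040). The calls did not survive on the TPM scale, where JUN had a mean of 16.5 TPM with DMSO, 17.1 with 150 nM and 17.5 with 500 nM, and a log2(TPM + 1) change of 0.09 at 500 nM (limma, adjusted p = 0.51). On that scale the median change of all genes in TMD8 at 500 nM was -0.22, against 0.04 with TMM, and 1751 genes were called higher and 7581 lower, against 4601 and 4723. The short RNA MIR3687 was at 151659 to 243496 TPM in the TMD8 libraries. After log2(TPM + 1) values were centred on library medians, the change of JUN was 0.34 (limma, adjusted p = 5.3e-04).

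The EGR genes split in TMD8. EGR1, a growth-factor and antigen-receptor induced activator, was at 27.9, 30.5 and 27.4 CPM with DMSO, 35.3, 38.4 and 46.3 with 150 nM and 52.1, 53.0 and 58.5 with 500 nM. EGR3, a related factor, was at 2.48, 2.41 and 2.62 CPM with DMSO, 4.06, 4.70 and 4.76 with 150 nM and 7.32, 6.21 and 6.85 with 500 nM. Each dose of both genes stood above the one below it in all libraries. The log2 changes of EGR1 were 0.50 (SE 0.09) and 0.93 (SE 0.09) (edgeR, adjusted p = 1.7e-04 and 5.0e-08), and those of EGR3 0.85 (SE 0.16) and 1.44 (SE 0.16) (edgeR, adjusted p = 3.0e-04 and 2.9e-07). The EGR1 call at 150 nM ended on both uncentred TPM scales, with 0.28 on log2(TPM + 1) (limma, adjusted p = 0.070).

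EGR2 went the other way and was the only member called lower at any dose in either line. It was at 45.1, 43.8 and 42.7 CPM with DMSO, 34.8, 33.2 and 33.6 with 150 nM and 19.4, 19.5 and 19.8 with 500 nM. The 3 groups were apart. The log2 change was -0.37 (SE 0.06) at 150 nM (edgeR, adjusted p = 4.6e-05), -1.16 (SE 0.06) at 500 nM (edgeR, adjusted p = 5.1e-11) and -0.79 (SE 0.07) from 150 to 500 nM (edgeR, adjusted p = 1.7e-07). EGR2 kept its direction and its call under each alternative tried for these 3 comparisons. The TGACGT core shown in capitals above is in the windows of FOS, FOSB, JUND and EGR1, and also in that of FOSL2, which is not printed. These genes rose, as did JUN and JUNB, whose windows held no TGACGT. The core is also in 1 of the 3 windows of EGR2, which fell, and its part in the changes was not tested.

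Between the 2 doses in TMD8, 8 members were higher at 500 nM, 1 was lower and FOSL1 was not called, against 13.7% higher and 15% lower among all genes tested. The number higher was 5 on log2(TPM + 1) and 4 on log2(TPM + 0.1), where the median change of all genes was -0.14 and -0.19. The steps called by edgeR outside FOS, FOSB and EGR2 ran from 0.26 for JUN to 0.84 for FOSL2 on the log2 scale.

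In OCI-Ly1 at 150 nM, 0 of the 9 members tested were called in either direction by edgeR, DESeq2 or limma. At an unadjusted p under 0.05 edgeR gave 0 higher and 1 lower. Of the 15638 genes tested in this line 0.889% were called, 0.748% higher and 0.141% lower. The member at the unadjusted threshold was EGR1, at 1.55, 0.822 and 0.767 CPM with DMSO and 0.646, 0.454 and 0.372 at 150 nM. Its treated libraries lay below all DMSO libraries, with a log2 change of -1.08 (SE 0.36) that did not pass (edgeR, adjusted p = 0.26). JUNB and JUND libraries lay above their DMSO libraries without overlap, with log2 changes of 0.12 (SE 0.10) and 0.14 (SE 0.08) (edgeR, adjusted p = 0.71 and 0.60). Such separation upward was seen in 6.73% of all genes tested, and downward in 7.29%. The 95% intervals of the members' changes ran from -1.42 to 1.52 for FOSL2 at the widest and from -0.03 to 0.31 for JUND at the narrowest.

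At 500 nM in OCI-Ly1, 7 members rose, 0 fell, FOSL1 and EGR2 were not called, and EGR3 was not tested. Among all genes tested 27.7% were called higher and 25.9% lower, which is 4330 and 4057 genes, against 5739 and 2240 on log2(TPM + 1) and 2902 and 6079 on its centred scale. By edgeR at an unadjusted p under 0.05, by DESeq2 and by limma on each TPM scale, 0 members were lower. FOS, FOSB, FOSL2 and EGR2 reached the filter's 0.399 CPM in all 3 libraries of a group only at 500 nM, so those that rose could be tested only because they were high there, and the count is a description. The 500 nM libraries lay above all DMSO libraries for 7 members, against 31.3% of all genes tested, while 29.3% of all genes lay below. JUN, JUNB, JUND and EGR1 reached it in all 3 DMSO libraries.

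JUN had the largest change among the members above the filter without treatment. It was at 2.85, 3.11 and 2.58 CPM with DMSO, 3.75, 3.51 and 2.93 with 150 nM and 20.4, 23.2 and 18.7 with 500 nM. The 500 nM libraries stood far above the rest, while DMSO and 150 nM overlapped. The log2 change at 500 nM was 2.87 (SE 0.13), or 7.32 times (edgeR, adjusted p = 6.0e-12). JUND went from 13.2, 14.6 and 14.0 CPM with DMSO to 14.8, 15.6 and 15.5 with 150 nM and 46.4, 48.9 and 44.2 with 500 nM. JUNB went from 10.9, 11.1 and 10.7 CPM with DMSO to 12.3, 11.6 and 11.7 with 150 nM and 30.2, 25.7 and 25.8 with 500 nM. Both 500 nM groups stood above all other libraries, with log2 changes of 1.74 (SE 0.08) for JUND and 1.32 (SE 0.09) for JUNB (edgeR, adjusted p = 2.2e-12 and 1.2e-09). Of the activated B-cell markers, IRF4 went from a mean of 55.1 TPM with DMSO to 116 with 500 nM and PIM2 from 53.9 to 130.1 in the same libraries. ENTPD1 went the other way, from 10.6 to 8.75 TPM, and CD44 was at 0.168 and 0.161. The part of these markers in the changes was not tested. In TMD8 IRF4 went from 365 to 178 TPM, PIM2 from 134 to 113, ENTPD1 from 23.7 to 14.1 and CD44 from 182 to 127. These marker values are uncentred TPM. On log2(TPM + 1) the median change of all genes at 500 nM was -0.22 for TMD8, against 0.10 for OCI-Ly1. How much of each marker's change lay beyond that shift was not tested.

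The FOS genes in OCI-Ly1 rose from a handful of counts. FOS had 11, 4 and 1 estimated counts in the DMSO libraries, 6, 13 and 1 with 150 nM and 88, 85 and 86 with 500 nM. In CPM these were 0.436, 0.235 and 0.0404 with DMSO, 0.242, 0.537 and 0.0532 with 150 nM and 2.62, 3.29 and 2.83 with 500 nM. The 500 nM libraries stood apart and the other groups overlapped. The log2 change at 500 nM was 3.58 (SE 0.47) (edgeR, adjusted p = 5.8e-06), and 4.52 without the first DMSO library, the library with 11 counts. FOSB was at 0.278, 0.411 and 0.484 CPM with DMSO, 0.323, 0.124 and 0.0532 with 150 nM and 2.0, 1.20 and 1.55 with 500 nM. FOSL2 was at 0.0793, 0.469 and 0.0807 CPM with DMSO, 0.202, 0.248 and 0.106 with 150 nM and 1.28, 0.736 and 0.823 with 500 nM. Their 500 nM libraries were above all others, with log2 changes of 2.02 (SE 0.40) and 2.34 (SE 0.54) (edgeR, adjusted p = 3.6e-04 and 0.0015). The FOSL2 change was 3.50 without the second DMSO library, and its call ended on the centred log2(TPM + 1) scale at 0.10 (limma, adjusted p = 0.37). FOSL1 was at 0.753, 0.235 and 0.686 CPM with DMSO and 0.685, 1.12 and 0.461 at 500 nM, overlapping, with a log2 change of 0.35 and a 95% interval from -0.53 to 1.24 (edgeR, adjusted p = 0.49).

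EGR1 in OCI-Ly1 was at 2.62, 2.44 and 1.84 CPM at 500 nM, above all DMSO and 150 nM libraries. The log2 change was 1.11 (SE 0.30) against DMSO (edgeR, adjusted p = 0.0042) and 2.20 (SE 0.33) against 150 nM (edgeR, adjusted p = 3.3e-05). EGR2 was at 0.753, 0.176 and 0.404 CPM with DMSO, 0.363, 0.248 and 0.426 with 150 nM and 0.506, 0.465 and 0.692 with 500 nM. Its 500 nM and DMSO libraries overlapped, with a log2 change of 0.25 and a 95% interval from -0.69 to 1.20 (edgeR, adjusted p = 0.66). EGR3 had 0 to 4 estimated counts in each of the 9 libraries, where no change could be detected at this depth. Against 150 nM, 7 members were called higher and 0 lower, with 25.1% of all genes called higher and 21.1% lower. The log2 steps of JUN, JUND and JUNB from 150 to 500 nM were 2.60 (SE 0.13), 1.60 (SE 0.07) and 1.20 (SE 0.09) (edgeR, adjusted p = 2.6e-11, 1.0e-11 and 6.1e-09). The number lower was also 0 by edgeR at an unadjusted p under 0.05, by DESeq2 and by limma.

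**Figure D2:**
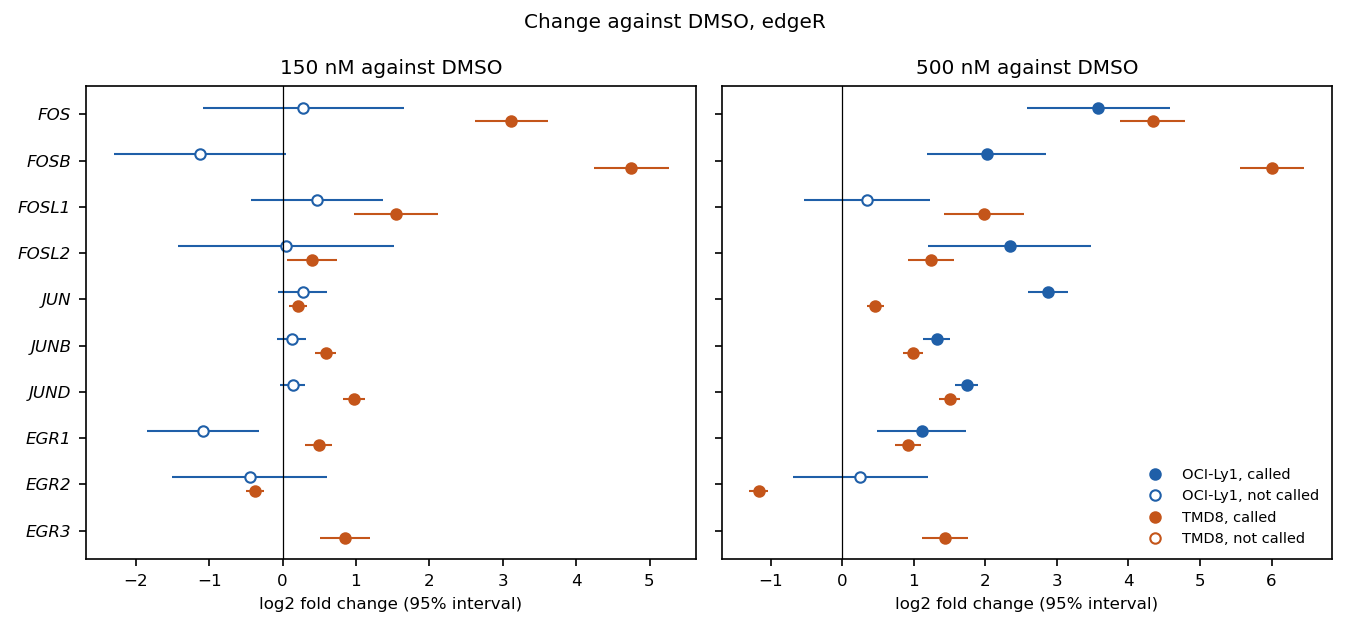
Log2 fold change against DMSO with its 95% interval from edgeR for each gene, at 150 nM (left) and 500 nM (right), in OCI-Ly1 (blue) and TMD8 (orange). Filled points passed an adjusted p under 0.05 and open points did not; EGR3 in OCI-Ly1 was not tested. At 150 nM no OCI-Ly1 point is filled, whereas in TMD8 FOSB lies at 4.75 and EGR2 at -0.37, and at 500 nM JUN lies at 2.87 in OCI-Ly1 and 0.47 in TMD8.

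Whether the lines differed in response was tested directly, by subtracting the TMD8 change from the OCI-Ly1 change at each dose in the fit of all 18 libraries. At 150 nM, 5 members had a lower change in OCI-Ly1 and 0 a higher one, against 8.33% lower and 15% higher among the 16604 genes tested. The number higher was 0 by edgeR at an unadjusted p under 0.05 and by DESeq2, and 1 by limma on log2(TPM + 1). FOSB differed by -5.85 (SE 0.65) and FOS by -2.81 (SE 0.76) on the log2 scale (edgeR, adjusted p = 8.9e-07 and 0.0082). FOS and FOSB entered these tests through the groups where they were high: with DMSO or 150 nM no OCI-Ly1 group had all 3 libraries at that line's filter level for either gene, nor did the TMD8 DMSO group for FOSB, so their calls add nothing to the count. JUND differed by -0.83 (SE 0.11), JUNB by -0.46 (SE 0.12) and EGR1 by -1.57 (SE 0.34) (edgeR, adjusted p = 6.6e-06, 0.0047 and 0.0015). The FOS difference was -1.85 and no longer called without the first DMSO library of OCI-Ly1 (edgeR, adjusted p = 0.26). The JUNB difference was not called on either uncentred TPM scale, at -0.28 on log2(TPM + 1) (limma, adjusted p = 0.067). JUN was not called at 150 nM, with a difference of 0.08 and a 95% interval from -0.26 to 0.42.

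At 500 nM, 4 members had a higher change in OCI-Ly1 and 2 a lower one, against 28.2% and 18.1% of all genes tested. On log2(TPM + 1) centred on the median the split was 3 higher and 6 lower, where the median of all genes was -0.07 against 0.05 with TMM. JUN differed most upward, by 2.44 (SE 0.13) (edgeR, adjusted p = 1.1e-13), followed by EGR2 at 1.42 (SE 0.32) (edgeR, adjusted p = 8.3e-04). In EGR2 the difference combined a fall in TMD8 with no called change in OCI-Ly1. The same limit holds for EGR2 in OCI-Ly1 and for FOSB, which differed by -3.95 (SE 0.55). FOSL1 differed by -1.62 (SE 0.50) (edgeR, adjusted p = 1.7e-06 and 0.010). JUNB and JUND differed by 0.36 (SE 0.11) and 0.27 (SE 0.10) (edgeR, adjusted p = 0.0074 and 0.030). FOS, with large rises in both lines, differed by -0.75 with a 95% interval from -2.06 to 0.56 and was not called (edgeR, adjusted p = 0.35). EGR1 differed by 0.20 with an interval from -0.31 to 0.72 (edgeR, adjusted p = 0.54).

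Leaving out single libraries changed some of these calls. Without the first DMSO library of OCI-Ly1 the FOSL1 difference was -1.36 (edgeR, adjusted p = 0.054) and the EGR2 difference 2.03 (edgeR, adjusted p = 4.1e-05). The number of members with a lower change was then 1. The JUND call ended without any 1 of 6 libraries, namely OCI-Ly1 DMSO 1, OCI-Ly1 500 nM 2, TMD8 DMSO 2, TMD8 DMSO 3, TMD8 500 nM 1 or TMD8 500 nM 2 (edgeR, adjusted p from 0.053 to 0.089). It also ended with library size as the only scaling, at 0.23 (edgeR, adjusted p = 0.087). EGR3 had at most 4 counts in any OCI-Ly1 library, so no line difference is given for it.

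**Figure D3:**
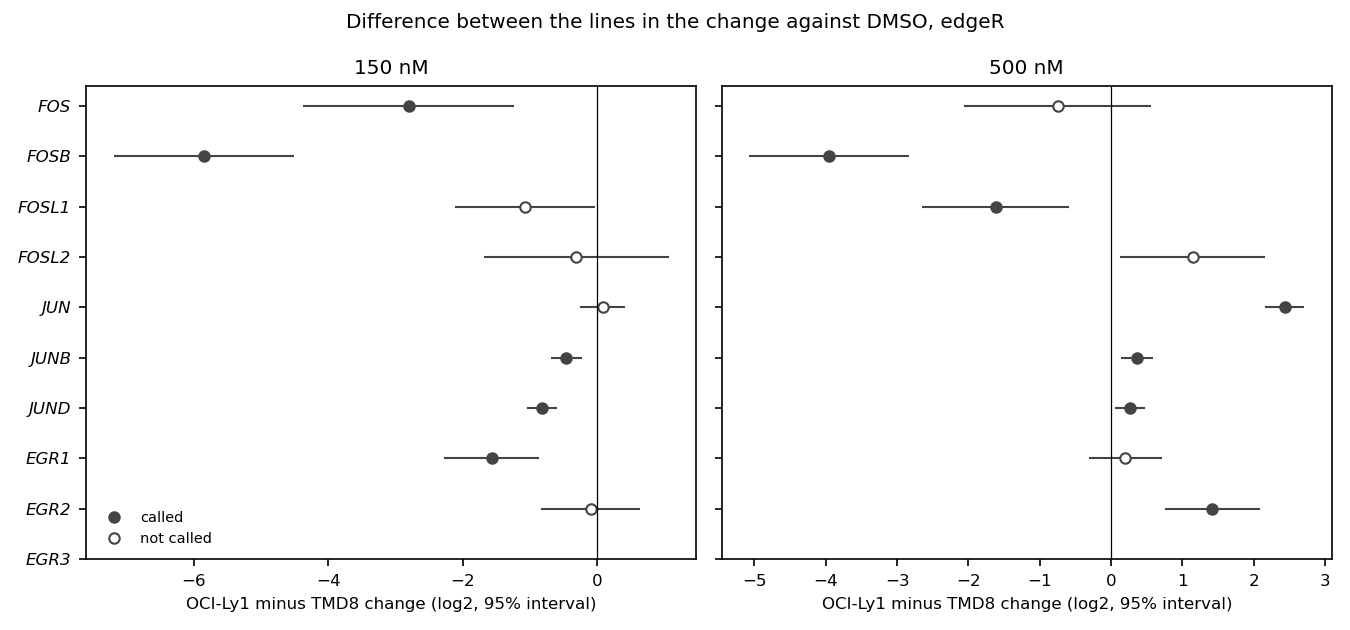
OCI-Ly1 change less the TMD8 change, each against DMSO, on the log2 scale with its 95% interval from edgeR, at 150 nM (left) and 500 nM (right). Filled points passed an adjusted p under 0.05, open points did not, and EGR3 is left out for its low counts in OCI-Ly1. FOSB lies at -5.85 and -3.95, and JUN moves from 0.08 at 150 nM to 2.44 at 500 nM.

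The make-up of each family was described from TPM, which allows levels to be summed over genes of different length. Shares within a family in the same library do not depend on how libraries are scaled. In TMD8 the 4 FOS genes together were at 1.58 ± 0.279 TPM with DMSO, 7.55 ± 2.04 with 150 nM and 14.3 ± 0.918 with 500 nM (mean ± SD, n = 3). FOS and FOSB made up 33.5 ± 4.08% of that total with DMSO, 76.1 ± 2.10% with 150 nM and 83.2 ± 1.66% with 500 nM. The 3 JUN genes together exceeded the FOS genes by 46.5 to 63.4 times in the DMSO libraries, 14.5 to 21.0 times at 150 nM and 9.79 to 11.0 times at 500 nM. The ranges of the 3 groups did not overlap. In OCI-Ly1 the same ratio was 18.7 to 31.7 with DMSO and 17.6 to 19.9 at 500 nM, which overlap, although the FOS total went from 0.811 ± 0.190 to 3.62 ± 0.392 TPM.

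The JUN families of the lines shifted toward different members. In TMD8 JUND held 54.3 ± 0.430% of JUN family TPM with DMSO and 66.2 ± 1.06% at 500 nM, while the share of JUN went from 19.6 ± 1.32% to 11.6 ± 0.483%. In OCI-Ly1 JUN went from 5.75 ± 0.412% to 13.1 ± 1.04% and JUNB from 42.2 ± 0.978% to 32.8 ± 2.51%. The total of the 3 JUN genes was 83.8 ± 3.06 TPM with DMSO and 151 ± 16.2 at 500 nM in TMD8, and 19.4 ± 0.575 and 68.4 ± 2.96 in OCI-Ly1. The treated OCI-Ly1 total at 500 nM thus stayed below that of untreated TMD8.

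Among the EGR genes of TMD8, EGR2 held 60.5 ± 1.35% of the family's TPM with DMSO, 45.5 ± 3.71% with 150 nM and 26.0 ± 0.799% with 500 nM. EGR1 held 37.1 ± 1.41%, 50.4 ± 3.65% and 67.9 ± 1.17%. The leading EGR gene thus changed from EGR2 to EGR1, with all libraries at 500 nM apart from those with DMSO.

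**Figure D4:**
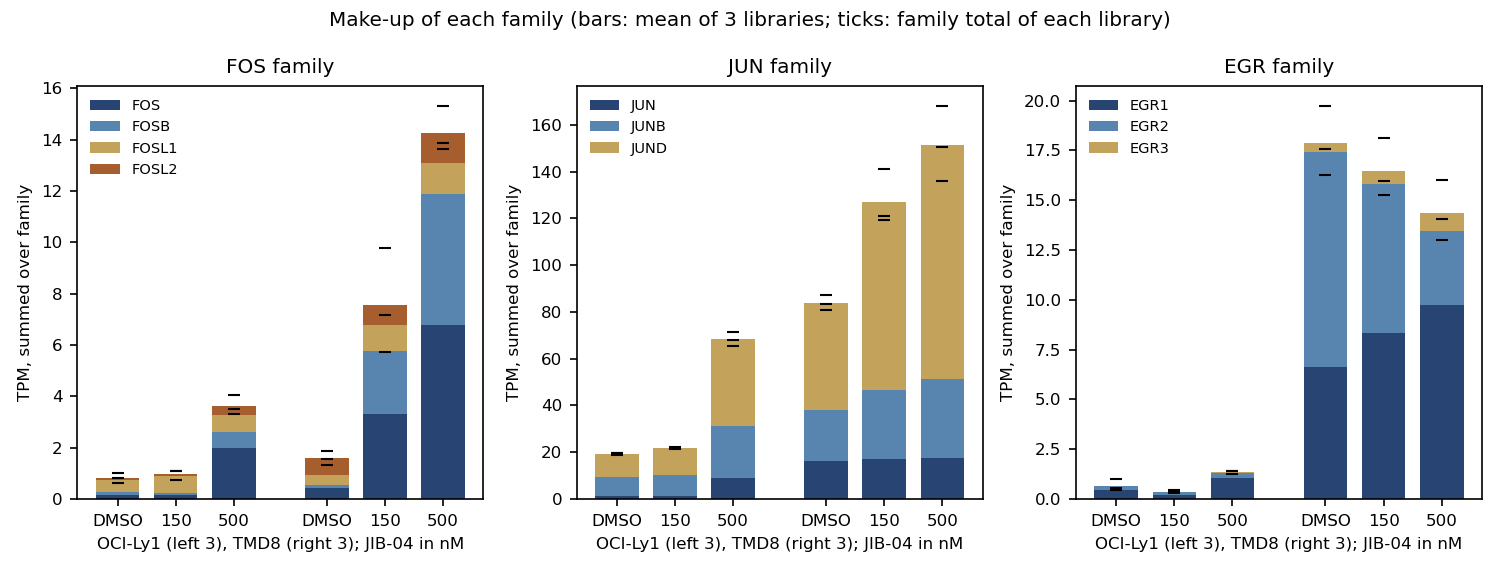
Summed TPM of the FOS (left), JUN (middle) and EGR (right) genes in OCI-Ly1 and TMD8 at each JIB-04 dose, each panel with its own axis. Stacked colours are the mean of each gene over 3 libraries, and black ticks are the family total of each library. In TMD8 FOS and FOSB fill 83.2% of the FOS bar at 500 nM, and EGR2 shrinks from 60.5% to 26.0% of the EGR bar.

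The other genes of the pathway were counted from 6 lists. Each count at 500 nM stands beside 27.7% higher and 25.9% lower among all genes tested in OCI-Ly1, and 29.9% and 30.7% in TMD8. Of 25 further immediate-early genes, 11 were higher and 4 lower of 20 tested at 500 nM in OCI-Ly1, and 14 were higher and 6 lower of 22 tested in TMD8 (edgeR, adjusted p under 0.05). Their median log2 change was 0.49 and 0.54, beside medians of -0.0033 and 0.0414 over all genes tested. At 150 nM, 2 of 20 tested were higher in OCI-Ly1, beside 0.748% of all genes. In TMD8 13 were higher and 4 lower of 22 tested at that dose, beside 19.2% and 25.0% of all genes. ATF3, a stress-induced ATF protein that pairs with JUN proteins, went from 0.379 ± 0.195 to 28.5 ± 4.97 CPM in OCI-Ly1 at 500 nM, a log2 change of 6.13 (edgeR, adjusted p = 1.5e-13). PPP1R15A, which directs dephosphorylation of a translation initiation factor, went from 10.0 ± 0.237 to 93.3 ± 4.84 CPM. In TMD8 NR4A1, an orphan nuclear receptor, went from 1.73 ± 0.263 to 20.1 ± 0.214 CPM, a log2 change of 3.54 (edgeR, adjusted p = 1.4e-12), and ARC went from 0.111 ± 0.0493 to 3.53 ± 0.0917 CPM. The largest falls on the list were SIK1 (-0.84) and BTG2 (-0.44) in OCI-Ly1 and KLF6 (-0.40) and SRF (-0.29) in TMD8, as log2 changes. SRF is the factor that binds the CArG box. In OCI-Ly1 ATF3, and in TMD8 ARC, had a DMSO mean below the low-count filter's level (0.399 and 0.676 CPM), as had DUSP8 below in both lines and MMP9 in OCI-Ly1, so these genes could be tested only through treated libraries.

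Among MAP kinase phosphatases and inhibitors, which damp the signal to these genes, 4 were higher and 2 lower of 13 tested in OCI-Ly1, while 7 were higher and 1 lower of 13 tested in TMD8 at 500 nM, with medians of -0.11 and 0.26. The 4 higher in OCI-Ly1 are a share near the 27.7% of all genes. DUSP1, a nuclear MAP kinase phosphatase, went from 0.798 ± 0.277 to 3.32 ± 0.383 CPM in OCI-Ly1, and in TMD8 from 4.12 ± 0.283 to 27.5 ± 2.49 CPM, with log2 changes of 2.10 and 2.74 (edgeR, adjusted p = 3.8e-06 and 7.1e-12). DUSP8 rose by 3.05 in TMD8 and went from 0.0927 ± 0.0460 to 0.684 ± 0.352 CPM in OCI-Ly1. DUSP2, a phosphatase of activated lymphocytes, fell in both lines, with log2 changes of -0.65 and -0.24, and SPRED3 fell in OCI-Ly1 (-0.40). At 150 nM, 5 of 13 were higher and 0 lower in TMD8, beside 19.2% and 25.0% of all genes.

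Of the genes for proteins that pair with AP-1 subunits or repress EGR factors, 11 were tested in each line. At 500 nM, 6 were higher and 2 lower in OCI-Ly1, with a median of 0.30. In TMD8 4 were higher and 4 lower at that dose, with a median of -0.12. The TMD8 counts are near the 29.9% higher and 30.7% lower of all genes. BATF3, a JUN partner, went from 0.477 ± 0.124 to 11.0 ± 0.782 CPM in OCI-Ly1 (log2 change 4.52, edgeR, adjusted p = 2.3e-12). BATF, the JUN partner that acts with IRF4 in lymphocytes, fell in TMD8 from 154 ± 1.69 to 83.3 ± 3.57 CPM (log2 change -0.89, edgeR, adjusted p = 1.8e-10). Among the small MAF genes, MAFK fell in both lines (-0.53 and -0.55), MAFF fell in OCI-Ly1 (-0.45) and MAFG rose in TMD8 (1.23), as log2 changes.

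For the kinases and factors upstream, 4 were higher and 4 lower of 22 tested in OCI-Ly1, while 6 were higher and 9 lower of 22 tested in TMD8, with medians of -0.02 and -0.10. The 6 higher in TMD8 are near the 29.9% of all genes, and both OCI-Ly1 counts are below the 27.7% and 25.9% there. Among the called log2 changes were those of ELK3 (1.70), MAP2K6 (1.05) and MAP2K3 (-0.62) in OCI-Ly1. In TMD8 the largest were those of MAPK8 (0.76), which encodes the JUN kinase JNK, MAP2K6 (0.64), MAPK9 (-0.47), the other main JNK gene, and MAPK3 (-0.39), an ERK. Of the factors that degrade or stabilise AU-rich mRNAs, 4 were higher and 4 lower of 11 tested in OCI-Ly1, while 4 were higher and 7 lower of 11 tested in TMD8, with medians of 0.12 and -0.23. BTG1 rose in both lines (1.06 and 0.77). So did ZFP36, a decay factor, by 0.69 in OCI-Ly1 and 0.63 in TMD8, while its relative ZFP36L2 rose by 0.87 in TMD8. ELAVL1, a stabiliser, fell in both, with -0.27 in OCI-Ly1 and -0.55 in TMD8, where HNRNPD (-0.71) and KHSRP (-0.56), which bind AU-rich elements, also fell.

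Of 16 genes known to be switched on through AP-1 or EGR sites, 9 of 13 tested were higher in OCI-Ly1, and 8 were higher and 3 lower of 13 tested in TMD8 at 500 nM, with medians of 0.46 and 0.43. Among all genes 27.7% were higher in OCI-Ly1. In TMD8 the shares were 29.9% higher and 30.7% lower. VEGFA, an angiogenic growth factor, went from 6.46 ± 1.69 to 48.0 ± 5.22 CPM in OCI-Ly1 (log2 change 2.90, edgeR, adjusted p = 9.1e-12), and MMP9, a matrix protease, went from 0.112 ± 0.146 to 0.497 ± 0.299 CPM. In TMD8 TNFRSF10B, a death receptor, rose by 1.31 and CCND1, a cyclin, by 0.93 on the log2 scale, while TGFB1 (-0.46) and the activation marker CD69 (-0.45) fell. At 150 nM, 1 was higher in OCI-Ly1, beside 0.748% of all genes. In TMD8 6 were higher and 2 lower of 13 at that dose, beside 19.2% and 25.0%.

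Untreated, the lines also differed in most of these genes. Of the immediate-early list, 2 were higher and 20 lower of 22 tested in OCI-Ly1 than in TMD8, with a median log2 difference of -3.10, and of the MAP kinase phosphatases and inhibitors 3 were higher and 11 lower of 14 tested, with a median of -2.01. For the target list the count was 2 higher and 11 lower of 14, with a median of -2.63. The dimer partners and co-repressors had 3 higher and 6 lower of 12 (median -0.26). The upstream kinases and activators had 9 higher and 13 lower of 22 (median -0.25), and the AU-rich decay factors 2 and 9 of 11 (median -1.11). The median of all genes was -0.02, with 39.0% called lower and 37.8% higher. The fit of OCI-Ly1 alone tested 20, 13 and 13 genes of the first 3 lists named here, against 22, 14 and 14 in the joint fit. Genes low in OCI-Ly1, such as ATF3 (mean 0.379 CPM with DMSO, below the filter's 0.399), entered the test through groups where they were higher. The calls of such genes add nothing to these counts, which are a description.

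The members' levels across libraries were compared as correlations of log2 CPM, given as a description, since libraries of a dose group share their treatment and their depth. Over the 9 TMD8 libraries EGR2 ran against the other 9 members, with Pearson r from -0.97 (FOSL2) to -0.85 (FOSL1). The other 9 ran together, with r from 0.81 (FOSL1 with FOSL2) to 0.99 (FOS with FOSB). Over the 9 OCI-Ly1 libraries JUN, JUNB and JUND had r of 0.99 with one another, while FOSL1 had r from -0.20 to 0.40 with the other 8 members tested there. Over all 18 libraries, with each line centred on its mean, the genes most like FOS among 11170 candidates were CLCN7 (r = 0.979), MFSD11 (0.975) and ZNF767 (0.971). Those most like JUN were PIM2 (0.994), ZNF275 (0.990) and FAM43A (0.989), with 0.749, 0.726 and 0.898 over the TMD8 libraries alone. Those most like EGR1 were MTMR3 (0.929), ZFP36 (0.928) and PLEC (0.928).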

How the data were processed

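Total RNA of OCI-Ly1 and TMD8 cells was depleted of ribosomal RNA and sequenced as paired ends, per the labels' protocols. For each line the authors deposited estimated counts, which were not scaled for depth, and TPM (transcript abundance scaled for length and depth by the authors). The submitters' processing notes name kallisto 0.46.0, hg19, R 4.3.1 and DESeq2 1.40.2 with no role given, and the transcript index is not given in the sources used here. Counts on the 2 strands cannot be told apart.

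Estimated counts were rounded and tested with edgeR 4.0.16 in R 4.3.3 (quasi-likelihood test, TMM, edgeR's low-count filter with a minimum count of 10, Benjamini-Hochberg adjustment over all genes tested, called at an adjusted p under 0.05). The 9 libraries of a line were fitted together, and all 18 for differences between lines. Of 23686 genes, 15638 were tested in OCI-Ly1, 15363 in TMD8 and 16604 in the joint fit. The alternatives were DESeq2 1.42.0, library size alone, no filter, limma 3.58.1 on log2(TPM + 1), log2(TPM + 0.1) and centred log2(TPM + 1), leaving out each library, and a replicate block. Scripts were tested on simulated data.

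Members and lists were chosen with earlier results of these data known. All 10 members were named, and of each of the 6 lists the 2 largest called rises and falls at 500 nM against DMSO in each line, some of which are not reported here. The lists were other immediate-early genes, MAP kinase feedback phosphatases and inhibitors, dimer partners and co-repressors, upstream kinases and activators, AU-rich mRNA decay factors, and genes switched on through AP-1 or EGR sites. ZFP36, BTG2 and NAB2 stood on 2 lists each. For FOS, JUN and EGR1 the 3 genes with the highest correlation and a mean of at least 5 CPM were named. Log2 CPM used a prior count of 2. A group with at most 3 counts in each library was taken as at the floor. Promoter sequences came from RefSeq (GRCh38.p14) and were not converted to hg19.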

Additional observations from a re-analysis of the deposited data

Results flagged for a closer look

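The change against DMSO differed between the lines, by a test of the difference itself in the fit of all 18 libraries, for 5 members at 150 nM and 6 at 500 nM. Values are the change in OCI-Ly1 minus that in TMD8 on the log2 scale. At 150 nM the difference was -2.81 for FOS, -5.85 for FOSB, -0.46 for JUNB, -0.83 for JUND and -1.57 for EGR1 (edgeR, adjusted p from 8.9e-07 for FOSB to 0.0082 for FOS). At 500 nM it was -3.95 for FOSB, -1.62 for FOSL1, 2.44 for JUN, 0.36 for JUNB, 0.27 for JUND and 1.42 for EGR2 (edgeR, adjusted p from 1.1e-13 for JUN to 0.0305 for JUND). Among all genes tested, 15% were called higher and 8.33% lower at 150 nM, and 28.2% higher and 18.1% lower at 500 nM. The JUND call at 500 nM ended without any 1 of 6 libraries and with library size alone, and the JUNB call at 150 nM ended on both uncentred TPM scales. FOSB, and FOS and EGR2 in OCI-Ly1, could be tested only through the groups where they were high, so their differences are a description. FOSL1 had 19, 4 and 17 estimated counts in the OCI-Ly1 DMSO libraries, and its call at 500 nM ended without the first of them.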

How the results depend on the processing

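Of 1251 values of single members under an alternative, 1162 kept their direction and their side of the threshold, 38 lost a call, 17 gained one and 34 changed sign. The sign changes were all in differences not called with edgeR. Deviations of same-numbered libraries correlated at -0.05 to 0.15, with 2 of 9 pairs over 0.1 in each line. In both lines these were DMSO against 150 nM for replicates 1 and 3. Differently numbered libraries were not compared, so whether replicate numbers pair the samples is not settled. The replicate block changed no call of a member: at 500 nM it gave 7 members higher in OCI-Ly1, and in TMD8 it gave 9 higher with 1 lower. The cause of the changes below was not tested.

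In TMD8 at 150 nM against DMSO, 8 members were higher by DESeq2, 6 on each uncentred TPM scale and 7 after centring, against 9 by edgeR. At 500 nM against DMSO it was 8 on each uncentred TPM scale, against 9. In OCI-Ly1 at 500 nM, 6 were higher after centring, against 7, both over DMSO and over 150 nM. The number of members higher at 500 than at 150 nM in TMD8 was 5 on log2(TPM + 1) and 4 on log2(TPM + 0.1), against 8. For the line difference at 150 nM, 1 member was higher by limma on log2(TPM + 1) and also 1 after centring, against 0 by edgeR, 0 at an unadjusted p under 0.05 and 0 by DESeq2. At 500 nM, 6 were lower on the centred scale, against 2, and 1 to 2 with a library left out.

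Log2 differences that changed sign are given with the edgeR value in parentheses. For OCI-Ly1 at 150 nM against DMSO, FOS (0.29) was from -0.57 to 1.24 with a library left out. FOSL2 (0.048) was -0.021 with DESeq2, -0.0063 on log2(TPM + 1), -0.038 on centred log2(TPM + 1) and from -0.37 to 1.21 with a library left out. EGR2 (-0.45) was from -0.75 to 0.16 with a library left out. For OCI-Ly1 at 500 nM against DMSO, FOSL1 (0.35) was -0.022 on centred log2(TPM + 1) and from -0.021 to 0.61 with a library left out. EGR2 (0.25) was -0.14 on centred log2(TPM + 1) and from -0.064 to 0.85 with a library left out. For OCI-Ly1 at 500 against 150 nM, FOSL1 (-0.11) was from -0.49 to 0.14 with a library left out. EGR2 (0.70) was -0.060 on centred log2(TPM + 1). For the line difference at 150 nM, FOSL2 (-0.31) was from -0.72 to 0.82 with a library left out. JUN (0.077) was -0.0069 with library size alone, -0.0087 on centred log2(TPM + 1) and from -0.0032 to 0.16 with a library left out. EGR2 (-0.097) was 0.43 on log2(TPM + 1), 0.40 on log2(TPM + 0.1), 0.32 on centred log2(TPM + 1) and from -0.37 to 0.51 with a library left out. For the line difference at 500 nM, FOS (-0.75) was from -1.30 to 0.21 with a library left out. FOSL2 (1.15) was -0.087 on log2(TPM + 1) and -0.54 on centred log2(TPM + 1). EGR1 (0.20) was -0.43 on centred log2(TPM + 1) and from -0.014 to 0.65 with a library left out. For the untreated lines, FOSB (-0.55) was 0.044 on log2(TPM + 1) and 0.24 on log2(TPM + 0.1). FOSL1 (-0.67) was 0.052 on log2(TPM + 1) and 0.072 on log2(TPM + 0.1).

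Among all genes, scaling moved the split of calls. On log2(TPM + 1) the line difference at 150 nM had 3432 genes higher and 595 lower, against 2484 and 1383 with TMM, and at 500 nM 9104 and 1112, against 4690 and 3009. Between the untreated lines it was 11296 and 2906, against 6272 and 6470, with 8 members lower on either scale. In TMD8 it was 1129 and 4183 at 150 nM, against 2955 and 3835, and 464 and 3980 from 150 to 500 nM, against 2111 and 2298. In OCI-Ly1 from 150 to 500 nM it was 4961 and 1860, against 3930 and 3302.

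Depth limits the low genes: EGR3 in OCI-Ly1 had at most 4 counts in a library, and FOS, FOSB, FOSL1, FOSL2 and EGR2 at most 19 in its DMSO libraries.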
